A study of Mus musculus with 8 samples.

Results

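miR-690 and 5 further names from the mature miRNA catalogue, miR-5126, miR-6240, miR-6238, miR-6538 and miR-1195, were examined in small RNA libraries of mouse prefrontal cortex. The 5 are listed here as names that can take up fragments of RNAs other than miRNAs. The members are 6 of the 1915 mature names listed for each library. They were chosen by name with earlier results of the same genotype comparison known. miR-690 was chosen for the largest increase in the knockout and the smallest p. Values of that comparison are therefore given as a description and not as a test.

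The libraries came from 12-week-old mice on a C57BL/6 background, 4 from Fkbp5 Knockout mice (replicates 1, 2, 4 and 5, called KO1, KO2, KO4 and KO5) and 4 from wild type mice (WT1, WT2, WT3 and WT4). Fkbp5 is the gene of a co-chaperone in the glucocorticoid receptor complex. How the knockout was made, and whether each library is a separate animal, is not given in the sources used here, so the spread between libraries may be partly technical. The assay does not read Fkbp5 messenger RNA and cannot check the genotype labels.

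A miRNA is cut from a hairpin precursor by Drosha and Dicer, loaded into an Argonaute protein, and guided to messenger RNAs by its seed, bases 2 to 8 from its 5′ end. Small RNA libraries also hold pieces of ribosomal RNA, transfer RNA and transcripts with repeats. A piece whose letters match a catalogued miRNA can be counted under that miRNA's name, so a catalogue name by itself does not show that Drosha and Dicer made the RNA.

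The mature sequences were compared with transcripts of other genes, so all 6 are shown, from RefSeq on GRCm38.p6, with the seed in capitals.
mmu-miR-690: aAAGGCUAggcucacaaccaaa
mmu-miR-5126: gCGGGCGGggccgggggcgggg
mmu-miR-6240: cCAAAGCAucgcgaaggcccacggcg
mmu-miR-6238: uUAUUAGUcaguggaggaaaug
mmu-miR-6538: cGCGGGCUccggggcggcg
mmu-miR-1195: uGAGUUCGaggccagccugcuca
No seed is shared between members. miR-5126 was 100% G and C and miR-6538 94.7%, ranks 1 and 2 among the 510 tested miRNAs with a RefSeq sequence, whose median was 47.8%. miR-6240, at 26 bases, was as long as any tested miRNA, and miR-6538, at 19, was among the 11 of at most 19 bases.

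Mature miR-690 lies at chr16:28599940-28599961, minus strand, in an intron of Fgf12 and on its strand. miR-5126 lies at chr1:84695890-84695911, plus strand, opposite an untranslated part of a Dner exon. miR-6538 lies at chr12:26414970-26414988, minus strand, in an intron of Rnf144a and on its strand. miR-1195 lies at chr17:70860558-70860580, minus strand, within the pseudogene Gm9320 but on the other strand, and on the same chromosome as Fkbp5 (chr17:28399094-28517527, GENCODE M21). miR-6240, at chr5:114851973-114851998 on the plus strand, and miR-6238, at chr7:53891796-53891817 on the minus strand, overlap no other annotated gene.

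miR-690 and miR-1195 share their letters with many other transcripts. The whole of mature miR-690 occurs in transcripts of 18 other annotated genes (GENCODE M21, sense strand only), 15 of them typed as miRNA in the annotation. A stretch of 16 bases of it occurs in 31 genes. Of the 510 tested miRNAs with a sequence, 7 (1.37%) had such a stretch in at least 20 other genes, and 2 (0.392%), miR-690 and miR-3473a, occurred whole in at least 10. The hairpin of miR-690 (chr16:28599935-28600043, minus strand, RefSeq) is shown because the stretch most widely shared is in it, just before the mature part, which is in capitals.
miR-690 hairpin: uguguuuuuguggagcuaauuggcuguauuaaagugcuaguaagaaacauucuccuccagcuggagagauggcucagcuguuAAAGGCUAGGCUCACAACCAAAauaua
Bases 62 to 77 of this hairpin, UGGAGAGAUGGCUCAG, occur in transcripts of 608 other genes. Those letters are known from the start of B2 short interspersed repeats (SINEs). They lie outside the mature part, and whether pieces with them were counted under miR-690 was not tested.

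**Figure D1:**
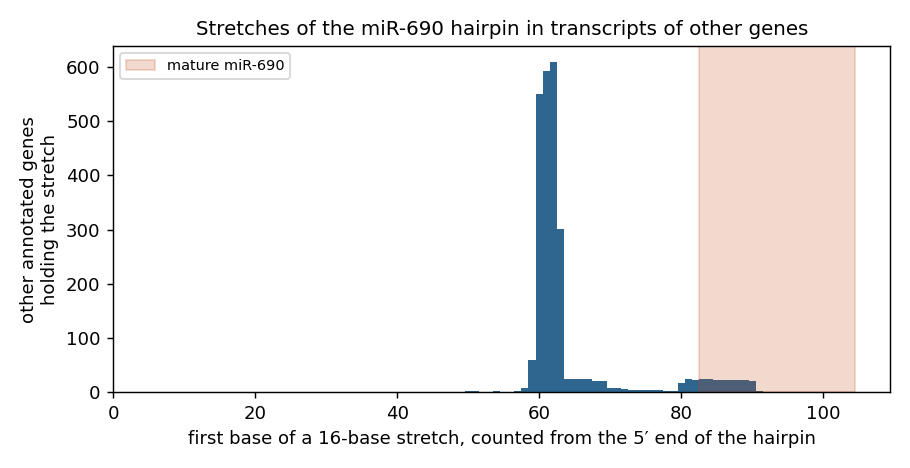
For each 16-base stretch of the miR-690 hairpin, the number of other annotated genes with that stretch in a transcript (vertical axis), by the position of its first base (horizontal axis). The count peaks at 608 genes at position 62 and is 22 to 25 for stretches within the mature miRNA, which spans bases 83 to 104 (shaded).

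miR-1195 ranked first of the 510 in sharing, with a 16-base stretch in 705 other genes. It is shown again with the shared bases, 1 to 19, in capitals.
miR-1195, bases 1 to 19: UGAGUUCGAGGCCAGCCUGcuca
Each 16-base stretch within those bases occurs in 639 to 663 genes, whereas stretches that reach further occur in at most 9. The shared letters are known from B1 repeats, the mouse counterpart of human Alu elements. No gene held the complete miR-1195 apart from its own. miR-6240 and miR-6238 had no 16-base stretch in transcripts of any other gene, miR-6538 had one in 1 gene and miR-5126 in 10. The hairpin of miR-6240 (chr5:114851948-114852064, plus strand, mature part in capitals) is shown because it is known to resemble a part of 28S ribosomal RNA closely, a sequence that is not among the transcripts searched.
miR-6240 hairpin: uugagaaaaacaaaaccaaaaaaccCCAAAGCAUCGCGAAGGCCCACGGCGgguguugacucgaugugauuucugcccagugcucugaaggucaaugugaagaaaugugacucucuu
For miR-5126, miR-6238 and miR-6538 the label as names that catch fragments could not be checked against a known parent RNA here. The likeness of miR-6240 to 28S ribosomal RNA was not checked here either.

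All values below are the deposited normalized counts after a further scaling of each library (trimmed mean of M values). Library totals of the deposited values were 17728879, 18057063, 19001551 and 19776148 in the knockout libraries KO1, KO2, KO4 and KO5, and 21463360, 21555993, 16180699 and 17192035 in the wild type libraries WT1, WT2, WT3 and WT4. WT1 and WT2 thus had the highest totals and WT3 the lowest. The neuronal markers of the labelled brain tissue were high in every library: miR-128-3p, miR-9-5p and miR-124-3p together reached 6230147 to 8226926 in knockout libraries and 6251450 to 8202348 in wild type libraries. None of the 21 markers of 8 cell classes was at 0 in any library, and 20 were tested.

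miR-690 was by far the most abundant of the 6. It had rescaled values of 563, 692, 711 and 847 in KO1, KO2, KO4 and KO5, against 192, 216, 426 and 468 in WT1, WT2, WT3 and WT4. Every knockout library was above every wild type library, and within wild type there was a wide gap between WT1 and WT2 and the other pair. Means were 703 ± 116 in the knockout and 325.6 ± 142 in wild type (SD, n = 4 each). The difference was 1.20 ± 0.28 on the log2(value + 1) scale (SE, limma), a fold of 2.30. Together the 6 names held 0.00611% of all deposited values in the knockout and 0.00369% in wild type. miR-690 ranked 254 of 599 tested miRNAs by level.

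This genotype difference is what singled miR-690 out, as the largest increase in log2 value in the knockout and the smallest p of the 599. Its fold change was not the largest in size: the epithelial marker miR-429-3p was at -1.32 ± 0.82 (SE). At an adjusted p of 0.05 (limma, Benjamini-Hochberg) there were 0 calls among the 599 (0.0%), miR-690 included. An unadjusted p under 0.05 was found for 24 (4.01%), 8 of them higher in the knockout (1.34%). The knockout libraries lay wholly above the wild type libraries for 3 of the 599 (0.501%), which were miR-690, miR-1934-5p and miR-433-3p, and wholly below them for 6 (1.0%). The 4 miRNAs nearest to miR-690 in level had log2 fold changes of 0.03 to 0.13. Without WT1 and WT2 the log2 fold change of miR-690 was 0.64 ± 0.18, against 1.20 with all libraries.

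**Figure D2:**
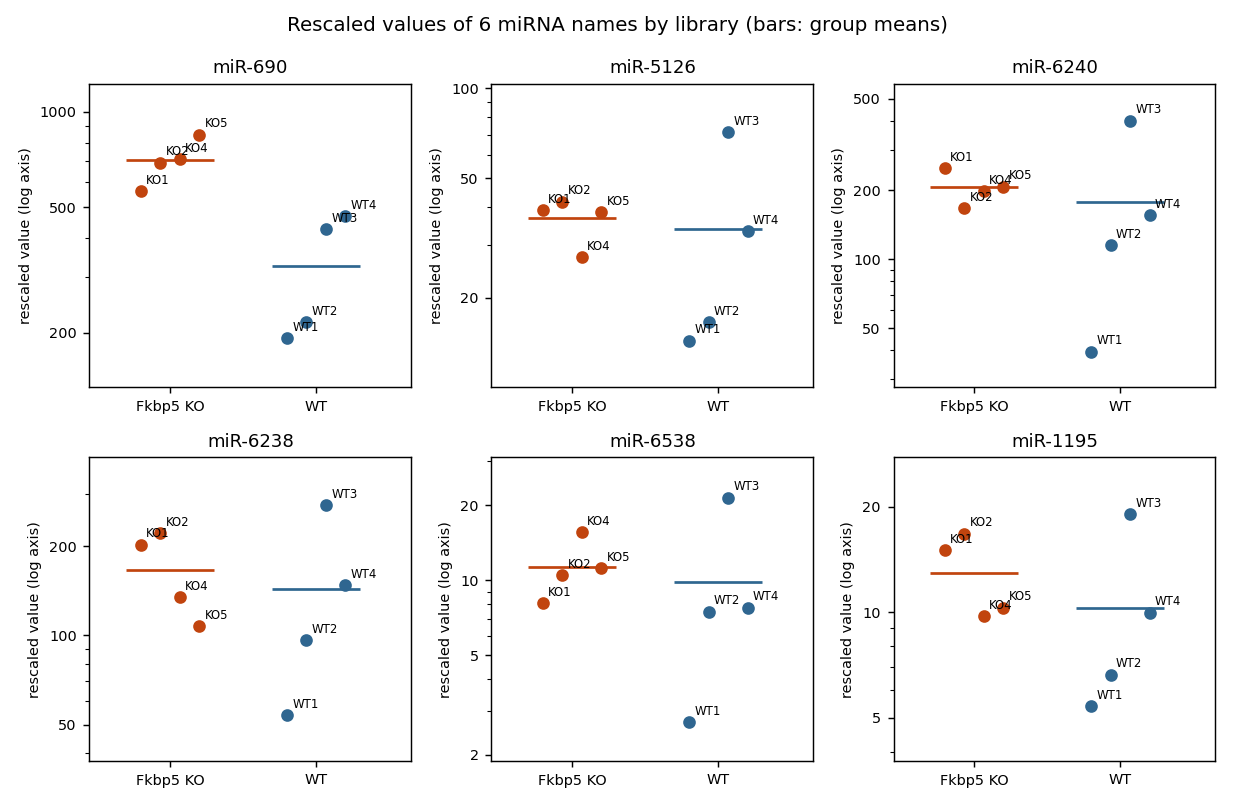
Rescaled values of the 6 names in each library (log axis), with Fkbp5 KO left and WT right and bars at the arithmetic group means. For miR-690 the 4 KO points lie above all WT points; for the 5 other names WT3 is the highest point and WT1 the lowest.

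The 5 other names had smaller log2 fold changes, and their groups overlapped. miR-6240 had values of 249.7, 166, 198 and 207 in KO1, KO2, KO4 and KO5, against 39.5, 115, 401 and 155 in WT1, WT2, WT3 and WT4. The wild type libraries spanned a 10.1-fold range that enclosed all knockout libraries, which spanned a 1.501-fold range. Means were 205 ± 34.3 in the knockout and 178 ± 156 in wild type (SD, n = 4 each), with a log2 fold change of 0.64 ± 0.52 (SE).

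miR-6238 had values of 202, 222, 135 and 107 in KO1, KO2, KO4 and KO5, against 53.9, 96.4, 275 and 147 in WT1, WT2, WT3 and WT4. WT1 was again lowest and WT3 highest, and the groups overlapped. Its log2 fold change was 0.40 ± 0.42 (SE), from means of 167 ± 54.3 in the knockout and 143 ± 95.8 in wild type (SD, n = 4 each). For miR-5126, the name made only of G and C, the values were 39.3, 41.9, 27.4 and 38.6 in KO1, KO2, KO4 and KO5, against 14.4, 16.6, 71.4 and 33.3 in WT1, WT2, WT3 and WT4. Its wild type libraries spanned a 4.96-fold range and its knockout libraries a 1.53-fold range. The log2 fold change was 0.38 ± 0.43 (SE).

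miR-1195, the B1-like name, and miR-6538, the other GC-rich name, were near the lower limit of what was tested, at ranks 578 and 589 of 599 by level. miR-1195 had 15.03, 16.7, 9.77 and 10.3 in KO1, KO2, KO4 and KO5, against 5.39, 6.65, 19.04 and 9.98 in WT1, WT2, WT3 and WT4. miR-6538 had 8.09, 10.46, 15.6 and 11.2 in KO1, KO2, KO4 and KO5, against 2.70, 7.48, 21.4 and 7.76 in WT1, WT2, WT3 and WT4. Groups overlapped for both, with log2 fold changes of 0.42 ± 0.39 for miR-1195 and 0.44 ± 0.49 for miR-6538 (SE). All 6 members passed the filter on low values, but these 2 reached its minimum in 3 knockout libraries and only 1 wild type library, so they entered mainly through the knockout group.

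The 5 names had log2 fold changes of 0.38 to 0.64 with a median of 0.42, against a median of 0.02 over all 599 miRNAs. All 5 were above 0, where 323 of the 599 (53.9%) were, and none passed the threshold on its own. Among them, miR-1195 and miR-6538 entered mainly through the knockout group, which by itself favours a value above 0. The 5 names shared their lowest and highest libraries, both wild type, so the 5 signs are not separate observations. Their size depended on WT1 and WT3, which moved it in opposite directions. Without WT1 the log2 fold changes were 0.09 for miR-5126, 0.08 for miR-6240, 0.03 for miR-6238, 0.03 for miR-6538 and 0.20 for miR-1195. Without WT3 they were 0.84 for miR-5126, 1.19 for miR-6240, 0.80 for miR-6238 and 0.76 for miR-1195, and miR-6538 no longer passed the filter. With both WT1 and WT3 left out, miR-5126 was at 0.61 ± 0.32, miR-6240 at 0.61 ± 0.21 and miR-6238 at 0.43 ± 0.32, and the other pair was not tested. miR-690 was at 0.995 without WT1, 1.38 without WT3 and 1.13 without both. Without WT1 and WT2, miR-5126 was at -0.42, miR-6240 at -0.30, miR-6238 at -0.33 and miR-1195 at -0.12, so the sign of these names depended on that pair of libraries.

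**Figure D3:**
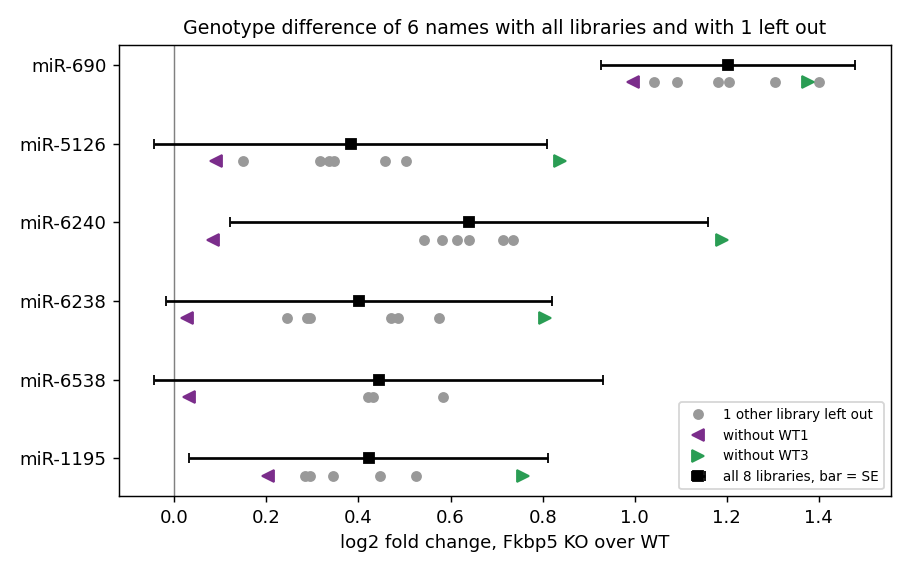
Log2 fold change of each name, Fkbp5 KO over WT, with all 8 libraries (square, bar of 1 SE) and with single libraries left out (smaller symbols below; missing where the name no longer passed the filter). Values of miR-690 run from 0.995 to 1.40, whereas those of the 5 other names are at 0.03 to 0.20 without WT1 and, where tested, at 0.76 to 1.19 without WT3.

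Spread between libraries of one genotype was wide for the 6 names in wild type and narrower in the knockout. Their highest and lowest libraries differed 1.501-fold to 2.07-fold in the knockout and 2.43-fold to 10.1-fold in wild type. The mean log2 deviation of the 5 names had an SD of 0.15 over the knockout libraries and 1.02 over the wild type libraries (n = 4 each). Some names outside the 6 also spread more widely in wild type. The neuronal marker miR-124-3p had an SD of 84503 in the knockout and 164768 in wild type. miR-23a-3p had 337 and 1921, but it followed the mean of the 5 names most closely, so it is not a separate example. Others went the other way, such as miR-150-5p, with an SD of 2080 in the knockout and 972 in wild type. How many of the 599 did either was not counted. Pooled over both genotypes, the within-genotype SD of log2 values was 0.98 for miR-6240, 0.79 for miR-6538, 0.78 for miR-6238, 0.75 for miR-5126, 0.57 for miR-1195 and 0.49 for miR-690, against a median of 0.26 over the 599. Of the 40 miRNAs nearest in level, 1 varied more than miR-6240, none more than miR-5126, 3 more than miR-6238 and 5 more than miR-690. For the low miR-1195 it was 18 of 40 and for miR-6538 it was 9 of 30, so at that level a wide spread was common.

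**Figure D4:**
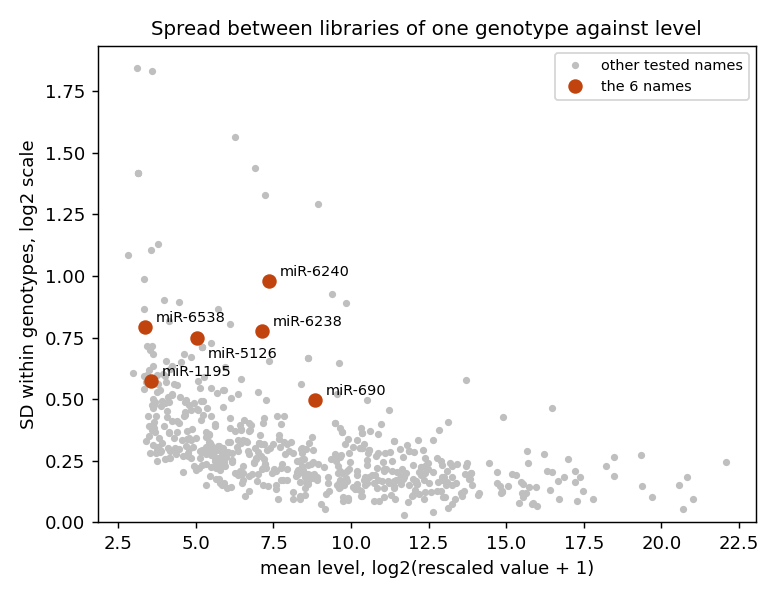
SD of log2 values within genotypes (vertical axis) against mean level on the log2(rescaled value + 1) scale (horizontal axis) for the 599 tested miRNAs, with the 6 names marked. miR-6240, miR-6238, miR-5126 and miR-690 lie above most miRNAs of similar level, with SDs of 0.98, 0.78, 0.75 and 0.49. Both genotypes are pooled in these SDs, and for the 6 names the wild type libraries spread more widely than the knockout libraries.

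The 5 names shared one order of libraries at its ends. WT1 was lowest and WT2 next lowest for all 5, and WT3 was highest for all 5. Among all 599 miRNAs, 19 (3.17%) had both their highest value in WT3 and their lowest in WT1, and these 5 are among the 19. Summed, the 5 names reached 514, 457, 386 and 374 in KO1, KO2, KO4 and KO5, against 116, 242, 788 and 354 in WT1, WT2, WT3 and WT4. Pearson correlations of log2 values, after each genotype mean was removed, ran from 0.69 to 0.97 over the 10 pairs of these names, with a median of 0.87, as a description over 8 libraries. Those values draw on the wide spread of the wild type libraries: within the knockout the names had different orders, with miR-6240 highest in KO1, miR-5126, miR-6238 and miR-1195 in KO2, and miR-6538 in KO4. In the deposited values too, WT1 was lowest for all 5 and WT3 highest, with KO2 level with WT3 for miR-1195 (16 each). The low sums stand beside the high totals of WT1 and WT2, and the high sum beside the low total of WT3. The part of library totals in this order was not tested.

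miR-690 followed that order in part. WT1 and WT2 were also its lowest libraries, but WT3 ranked 6 of 8, below every knockout library, where the 5 other names had their maximum. In the knockout, KO5 was its highest library, while the sum of the 5 was lowest there. miR-690 made up 52.3%, 60.2%, 64.8% and 69.4% of the summed 6 names in KO1, KO2, KO4 and KO5, against 62.4%, 47.2%, 35.1% and 57.0% in WT1, WT2, WT3 and WT4. These shares overlapped between the genotypes, since WT1 lay above KO1 and KO2.

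Over the 8 libraries, the Pearson correlation of miR-690 with the others was 0.67 for miR-6240, 0.66 for miR-5126, 0.64 for miR-1195, 0.64 for miR-6538 and 0.57 for miR-6238. By two-sided exact permutation over 40320 pairings, p was 0.0610 for miR-6240, 0.0710 for miR-5126, 0.0900 for both miR-1195 and miR-6538, and 0.145 for miR-6238. The exact permutation p adjusted over these 5 relations was 0.113 for the first 4 names and 0.145 for miR-6238. Spearman's rho was 0.50 for miR-6240, 0.38 for miR-5126, 0.38 for miR-1195, 0.62 for miR-6538 and 0.26 for miR-6238, with exact permutation p from 0.115 to 0.536 and adjusted p from 0.450 to 0.536. These pooled values keep the genotype means, so they include the genotype difference by which miR-690 was chosen. With genotype means removed, r was 0.71 for miR-6240, 0.77 for miR-5126, 0.60 for miR-1195, 0.70 for miR-6538 and 0.60 for miR-6238, with an adjusted p of 0.306 for each by exact permutation within genotypes (576 arrangements). No relation passed 0.05.

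These correlations rested on WT1 and WT2, the libraries farthest from the median of miR-690. Without them r was -0.45 for miR-6240, -0.52 for miR-5126, -0.43 for miR-1195, -0.13 for miR-6538 and -0.65 for miR-6238. With genotype means removed as well it was -0.39 for miR-6240, -0.25 for miR-5126, -0.59 for miR-1195, 0.10 for miR-6538 and -0.74 for miR-6238. Leaving out the extremes of miR-690 also narrows its range. Within the 4 knockout libraries, too few to test, r was -0.78 for miR-6238, -0.62 for miR-1195, -0.47 for miR-6240, -0.12 for miR-5126 and 0.55 for miR-6538. Within the 4 wild type libraries it was 0.72 to 0.86. Leaving out WT3 instead gave 0.84 for miR-6240, 0.91 for miR-5126 and 0.83 for miR-6538, with adjusted p by exact permutation of 0.0184 for miR-6240, 0.0288 for miR-5126 and 0.0129 for miR-6538, below the threshold. For miR-1195 it gave 0.79 (exact permutation, adjusted p = 0.0541) and for miR-6238 0.71 (adjusted p = 0.0796), above it. Genotype means were not removed here, so these values include the genotype difference by which miR-690 was chosen.

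**Figure D5:**
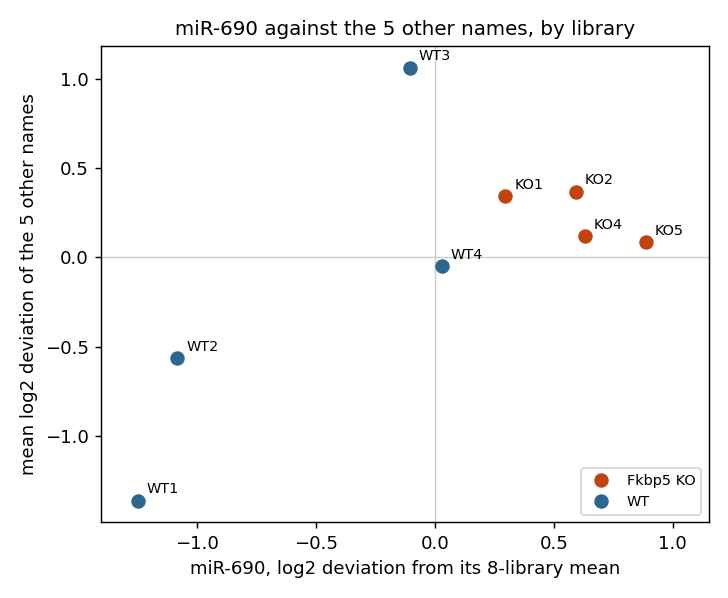
Each point is a library, placed by the log2 deviation of miR-690 from its mean over 8 libraries (horizontal axis) and by the mean log2 deviation of the 5 other names (vertical axis). WT1 and WT2 are low on both axes, WT3 is high only for the 5 names (1.06, against -0.11 for miR-690), and the 4 KO libraries lie at 0.09 to 0.37 on the vertical axis.

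Other miRNAs tracked miR-690 more closely than the 5 names did. After removal of genotype means, the highest Pearson correlations with miR-690 over the 8 libraries were those of miR-484 (0.96), miR-673-5p (0.95), miR-154-5p (0.93), miR-296-5p (0.92) and miR-450a-5p (0.90), out of 598 compared. These miRNAs were picked for being highest, and their correlations without WT1 and WT2 were not computed. miR-484 too was lowest in those libraries, at 2767 in WT1 and 2911 in WT2. The 5 names came at rank 23 (miR-5126), 37 (miR-6240), 43 (miR-6538), 63 (miR-6238) and 64 (miR-1195), and the quartiles of the 598 were -0.36 and 0.35. miR-673-5p and miR-154-5p come from the imprinted Dlk1-Dio3 region, miR-296-5p from the imprinted Gnas region, and miR-450a-5p from an X-linked cluster. miR-484 differed little between the genotypes, at 3409 ± 145 in the knockout and 3339 ± 580 in wild type (SD, n = 4 each), and ranged only 1.39-fold over the libraries, against 4.41-fold for miR-690. miR-154-5p averaged 115 ± 11.7 in the knockout and 78.6 ± 28.9 in wild type (SD, n = 4 each), with a log2 fold change of 0.62 ± 0.25 (SE, not past the threshold).

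Names listed as overlapping other RNAs or repeats did not move in 1 direction. Of 34 listed names, 22 were in the files and 9 were tested. Of these 9, 6 had higher and 3 lower mean log2 values in the knockout, where 53.9% of all 599 were higher. Of the 9, 0 passed the threshold, and the median log2 fold change was 0.03, against 0.02 over all 599. miR-1839-5p, from a small nucleolar RNA, was at -0.05 ± 0.11 (SE), miR-664-3p, also from a small nucleolar RNA, at 0.11 ± 0.15, miR-664-5p at 0.03 ± 0.14, and miR-1983, which matches a transfer RNA, at -0.20 ± 0.10. miR-1983 had 1824, 1865, 1615 and 1916 in KO1, KO2, KO4 and KO5, against 2039, 2166, 1999 and 2090 in WT1, WT2, WT3 and WT4. Its knockout libraries lay wholly below its wild type libraries, as for 6 of the 599 (1.0%), so its order was unlike that of the 5 names. miR-3473a, which occurs whole in 147 other genes, was highest in WT4 and lowest in KO5.

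A few listed names, picked after their values were seen, shared the ends of that order. miR-709 was at 36.9 in WT3 and 5.39 in WT1, miR-6239 at 46.4 in WT3 and 9.89 in WT1, whereas miR-2137 was highest in WT3 (46.4) and about equally low in WT1 (11.7) and WT2 (11.6). miR-23a-3p did so too, an abundant miRNA with 20177 in WT3 and 15520 in WT1, over a range of only 1.30-fold. Its correlation with the mean of the 5 names, genotype means removed, was 0.98, the highest of all miRNAs compared.

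Neighbours by catalogue number were also examined. Of 41 other names numbered 680 to 720, which is the range around miR-690, 22 were above 0 in some library and 6 were tested, with 4 higher and 2 lower in the knockout and a median log2 fold change of 0.08. The most abundant, miR-708-5p, was at 0.12 ± 0.12 (SE). miR-708-3p was at -0.14 ± 0.14, miR-700-3p at 0.13 ± 0.20 and miR-700-5p at 0.35 ± 0.25. Of 65 names in the number ranges of the other members, 13 were tested, with 8 higher and 5 lower and a median of 0.10. Over all 599 miRNAs, 53.9% were higher in the knockout and the median was 0.02. Of the 13, 1 had an unadjusted p under 0.05 by limma, against 4.01% of the 599. It was miR-1188-5p, at 0.60 ± 0.24 (SE). miR-1198-5p (0.12 ± 0.15), miR-6540-5p (-0.09 ± 0.14), miR-5099 (0.11 ± 0.21) and miR-1193-3p (0.03 ± 0.15) were the most abundant. In both groups 0 names passed the threshold. miR-1198-5p ran against miR-690, with a within-genotype correlation of -0.95, the lowest of the 598.

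Summed markers of red blood cells and of leukocytes and microglia, like the 6 names, were lowest in WT1. The red blood cell markers miR-451a and miR-486a-5p, both tested, summed to 3790 to 4902 in knockout libraries and 2936 to 5312 in wild type libraries, and both were lowest in WT1 and highest in WT4. The leukocyte and microglia markers (4 of 4 tested) summed to 8916 to 13364 in knockout libraries and 8445 to 10840 in wild type libraries. Of the 4, 3 were lowest in WT1, miR-150-5p, miR-223-3p and miR-142a-3p, whereas miR-142a-5p was lowest in KO4. Most of the sum was miR-150-5p, with means of 10657 in the knockout and 9332 in wild type. The 4 tested of 5 epithelial and olfactory markers summed to 295 to 2060 in knockout libraries and 508 to 3724 in wild type libraries, lowest in KO1 and highest in WT2. Choroid plexus markers (2 of 2 tested) summed to 7437 to 8195 in knockout libraries and 7741 to 11152 in wild type libraries, highest in WT1, where all 6 names were lowest. Nearly all of that sum was miR-204-5p, with means of 7776 in the knockout and 8871 in wild type. The other marker, miR-211-5p, with means of 69.3 and 86.3, was instead highest in WT3 and lowest in WT4. Smooth muscle markers (2 of 2 tested) summed to 38320 to 67054 in knockout libraries and 55956 to 77415 in wild type libraries. Oligodendrocyte markers (2 of 2) summed to 664 to 800.3 in knockout libraries and 706 to 934 in wild type libraries, and the endothelial marker miR-126a-3p was at 13131 to 16055 in knockout libraries and 13871 to 18336 in wild type libraries. These last 3 sums were lowest in KO4 and highest in WT2, although the smooth muscle marker miR-145a-5p by itself was lowest in WT1. The part of these cell types in the values of miR-690 and the other names was not tested, and in bulk tissue fewer cells of a type and less RNA per cell cannot be told apart.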

How the data were processed

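The authors deposited 1 table per library with 1915 mature miRNA names and, per the file headers, a normalized count for each. These deposited values are whole numbers of unequal totals whose normalization is not described, so they were handled as a score and not as raw counts, and no count model was run. Per the submitters' processing notes, cutadapt 1.11, Bowtie 1.1.2, HTSeq 0.6.1p1 and edgeR were used, with build mm10; how reads matching several places were treated is not given in the sources used here. Small RNA was enriched on columns and libraries were size-selected on a gel, per the labels' protocols. Sequencing depth behind the values is unknown.

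Values were rescaled by a trimmed mean of log ratios (30% of ratios and 5% of levels trimmed). Testing was limited to the 599 names with a value of 10 or more in 4 or more libraries, after adjusting 10 for library size, and a sum of 15 or more. Genotypes were compared on log2(value + 1) in limma 3.58.1, run under R 4.3.3 (mean-variance trend, Benjamini-Hochberg at 0.05), a scale that understates changes of low names. Correlations used exact permutations. The procedure was tested on simulated data. RefSeq gave sequences for 1623 names, all 6 members included. Genes were counted for each 16-base stretch found in 141767 GENCODE M21 transcripts.

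The members, lists and tests were chosen with earlier results of these data known. The text names the members, the 5 miRNAs most like miR-690 and up to 4 abundant names per list. miR-1934-5p, miR-433-3p, miR-3473a, miR-709, miR-6239, miR-2137, miR-1188-5p and miR-23a-3p were named after their values were seen. Alternatives were other scalings, filters and pseudocounts, no trend, a replicate block and the omission of libraries.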

Additional observations from a re-analysis of the deposited data

Results flagged for a closer look

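Among 46 groups of 4 libraries examined, covering the named miRNAs in each genotype, 1 contained a single library at a distance from its group, and about 5% (2.3 groups) would by chance. miR-5099 was at 292.71 in WT4, against 170.28 to 175.27 in the other wild type libraries. No group of the 6 members was marked in this way.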

How the results depend on the processing

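The log2 fold change of miR-690 kept its direction in all alternatives, from 0.995 to 1.40 with 1 library left out. The fits without WT1 and WT2, without WT1 and WT3, and 2 of the 3 replicate blocks were chosen after seeing the data. Without WT1 and WT2, miR-5126 (-0.42), miR-6240 (-0.30), miR-6238 (-0.33) and miR-1195 (-0.12) turned negative and miR-6538 was not tested; the cause was not tested.

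The labels do not say that replicate numbers pair the libraries, and same-numbered libraries had correlations of 0.06, -0.04 and 0.13. A replicate block on numbers 1, 2 and 4 gave miR-690 1.28 ± 0.23 with an adjusted p of 0.257 by limma and 0 miRNAs past the threshold. With scaling and filter from all 8 libraries the same block gave 1 miRNA by limma, miR-690 (1.27, adjusted p = 0.0385). With median of ratios scaling it gave 3 miRNAs, with miR-690 at 1.27 (limma, adjusted p = 0.00919). These p-values are a description and not a test. miR-690 was chosen by the same comparison, and both of these blocks were chosen after seeing the data. Without a block the threshold was passed by 0 miRNAs in all alternatives.

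The unadjusted count of 24 was 9 in the values as deposited, 50 without a filter, 14 with a stricter filter on low values, 38 in the 6 libraries of the block without it, 43 in both other blocks and 41 without WT1 and WT3. With 1 library left out it was 18 to 34.

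Without the 2 libraries farthest in miR-690, correlations turned to -0.52 (miR-5126), -0.45 (miR-6240), -0.65 (miR-6238), -0.13 (miR-6538) and -0.43 (miR-1195). With genotype means removed as well, that of miR-6538 stayed above 0, at 0.10. With 1 library left out, r with miR-690 ran from 0.465 to 0.91 for miR-5126, 0.36 to 0.84 for miR-6240, 0.21 to 0.75 for miR-6238, 0.32 to 0.83 for miR-6538 and 0.42 to 0.79 for miR-1195, lowest without WT1 for each. Values of 3 to 18 behind miR-6538 and 6 to 16 behind miR-1195 limit their precision.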
